A study of Mus musculus with 49 samples.

Results

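Collagen genes were described in RNA sequencing libraries of mouse frontal cortex, all from animals fed a high fat diet. Members were taken by symbol, as Col followed by a number, the letter a and a second number, with a mean of at least 3 on the deposited log2 scale over 49 libraries. All 44 genes of the table with such a symbol met the minimum, out of 24495 genes in all, and the lowest mean was 3.28, of Col4a3. The minimum therefore removed no gene. Levels are log2(normalised reads + 1), and differences are differences on that scale, so that changes of genes with few reads come out too small. Levels are compared between genes as normalised reads per kb of exon unless stated otherwise.

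The libraries fell into 5 groups. Mice with a conditional human amylin transgene had 4 months of the diet and were injected with tamoxifen (10 libraries) or vehicle (10 libraries), with brains collected 2 months after injection. Mice labelled AKO, for amylin knockout, had 4 months of the diet (10 libraries), as had wild-type (WT) mice (10 libraries), and other WT mice had 2 months (9 libraries). All groups share the high fat diet, and no group on another diet was analysed here. The promoter of the transgene, the cells that express the recombinase, and the age, sex and strain of the mice are not stated in the sources. The titles do not say that each library is a separate animal, and p-values thus reflect spread among libraries, which may be technical.

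Iapp, the mouse amylin gene, was counted as a check of the AKO label, but the counts do not settle it. It had 0 reads in the tamoxifen group, 1 in the vehicle group, 596 in the libraries labelled AKO (36 to 116 per library), 0 in 4-month WT and 0 in 2-month WT. With 0 reads in WT, a loss of Iapp could not be seen in these libraries. Which exons the knockout removes and where the reads lie are not stated, so these are called libraries labelled AKO throughout. Each library held 29.2 to 75.6 M recovered reads. Slc17a7, the glutamate transporter of cortical excitatory neurons, was at 15.23 to 16.58 over all libraries, high in each. Summed markers of the olfactory bulb, a neighbouring region, were highest in vehicle replicate 3 (58541 normalised reads), vehicle replicate 1 (39981) and tamoxifen replicate 9 (20903), against group medians of 1758 to 6312. Values without those 3 libraries are given beside the marker correlations and the Col8a2 and Col2a1 differences in vehicle.

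Collagens are extracellular matrix proteins whose chains wind into a rope-like helix. Fibrillar types build load-bearing fibrils, collagen IV builds the sheet of basement membranes around brain vessels and under the pia, and other types link fibrils, form networks or span the plasma membrane. In the brain, endothelial cells and pericytes make most vascular collagen IV, fibroblasts of the leptomeninges and large vessels make fibrillar and network-forming types, and neurons make some of the transmembrane and fibril-associated types. In bulk tissue, fewer cells of a type and less RNA per cell cannot be told apart.

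Per length, Col6a1, a beaded filament gene, and the main collagen IV genes had the highest levels. Col6a1 averaged 690 normalised reads per kb over the 49 libraries, Col4a2 290, Col4a1 229 and Col25a1 195. Among fibrillar genes, Col11a2 averaged 120 and Col1a2 79.4 normalised reads per kb. Lengths count every annotated exon of a gene, 6874 bases for Col11a2 and 12426 for Col1a2, and this order rests on them. Without division by length Col1a2 was the higher of these 2 genes, with a mean log2 level of 9.89 against 9.67. The lowest levels were those of Col4a3 (1.01) and Col4a4 (1.17), also chains of collagen IV, with 2 to 24 and 0 to 42 reads per library. The spread between libraries of a group also differed. The within-group SD of the log2 level was 0.20 for Col4a1 and for Col4a2, against 0.036 and 0.034 from read counting alone. It was 0.48 for Col1a1, 0.60 for Col3a1, 0.55 for Col8a2 and 0.85 for Col24a1.

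**Figure D1:**
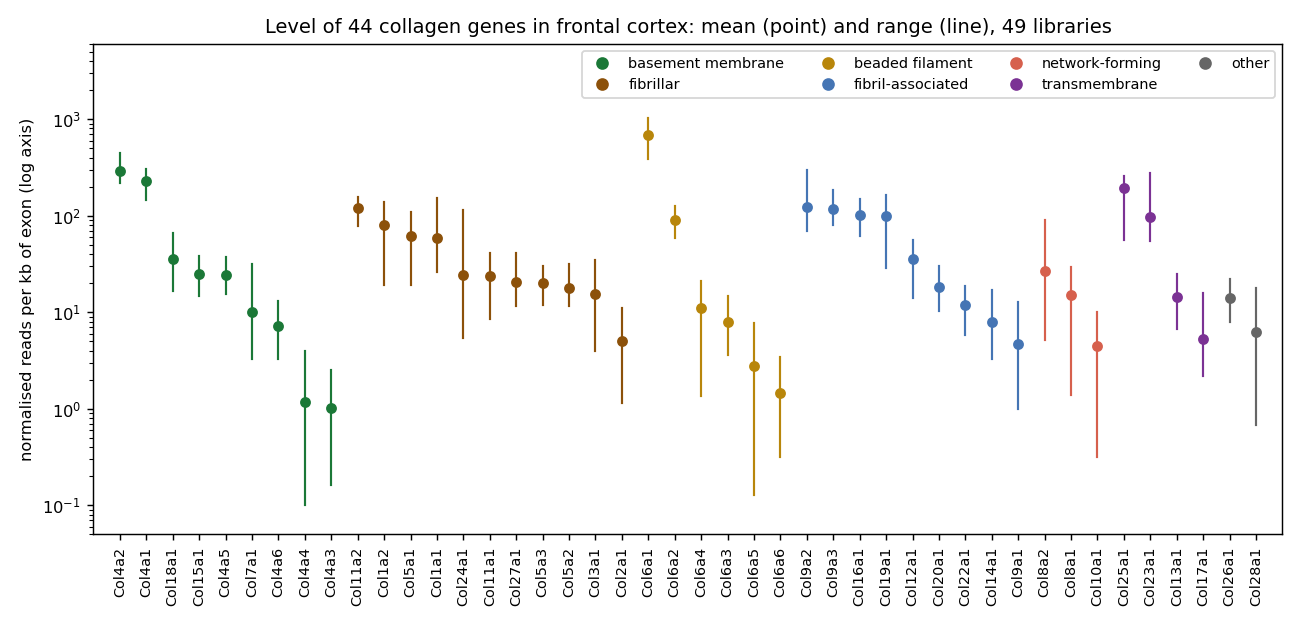
Normalised reads per kb of exon on a log axis for each of the 44 collagen genes, ordered by class and level; points are means and lines the lowest to highest of 49 libraries. Col6a1 at 690 and the pair Col4a2 and Col4a1 at 290 and 229 lead, while Col4a3 and Col4a4 lie near 1.

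Of 44 collagen genes, 8 differed among the 5 groups in limma's moderated F test at adjusted p 0.05 (Col14a1, Col5a3, Col8a2, Col2a1, Col4a1, Col5a1, Col20a1 and Col28a1), or 18.2%, against 23.2% of all genes tested. In tamoxifen against vehicle no collagen gene passed limma's test, as was the case for all genes (0% called; 502 genes, or 3.3%, had an unadjusted p under 0.05, among them 2 collagen genes, and limma-voom on recovered reads also called 0 collagen genes). In vehicle against WT at 4 months 1 of 44 passed, as a lower gene (6.17% of all genes were called, 2.58% higher and 3.59% lower; 10 collagen genes had an unadjusted p under 0.05, against 21% of all genes). In the libraries labelled AKO against WT at 4 months 0 of 43 passed (0.786% of all genes were called, 0.282% higher and 0.504% lower; 8 collagen genes had an unadjusted p under 0.05, against 14% of all genes, and limma-voom called 0). In WT at 4 against 2 months 2 of 43 passed, both higher (8.69% of all genes were called, 4.54% higher and 4.15% lower; 10 collagen genes had an unadjusted p under 0.05, against 27.2% of all genes). At the adjusted threshold, in either direction, the collagen share was below that of all genes in the F test. It was also below in the 3 comparisons in which any gene was called. In these comparisons the shares rest on few genes, as 1 gene of 44 is 2.27%, and a shortfall of collagen genes was not tested. The share that rose in WT at 4 against 2 months was 4.65%. At an unadjusted p under 0.05 the collagen share was 4.65% for tamoxifen against vehicle, 22.7% for vehicle against WT, 18.6% for the libraries labelled AKO against WT and 23.3% for WT at 4 against 2 months, above that of all genes in the first 3 and below it in the last. The WT libraries at 4 months enter 3 of the 4 comparisons, which are therefore not independent.

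Basement membrane collagens did not pass in any of the 4 comparisons. Col4a1 and Col4a2 encode the chains of the common collagen IV, and Col4a2 did not differ among the groups by the F test (adjusted p = 0.294). Col4a2 averaged 292 ± 24.8 normalised reads per kb with tamoxifen, 298 ± 26.9 with vehicle, 266 ± 31.8 in libraries labelled AKO, 282 ± 34.1 in 4-month WT and 314 ± 75.1 in 2-month WT (SD, n = 10, 10, 10, 10 and 9). Col4a1 averaged 240 ± 22.2, 247 ± 31.0, 197 ± 29.4, 225 ± 26.5 and 235 ± 45.7 in the same order. Col4a1 was the sole basement membrane gene past the F test (adjusted p = 0.0265), and the libraries labelled AKO were its lowest group. Its level there ran between 10.10 and 10.89 with a median of 10.52, against 10.45 to 11.02 with a median of 10.72 in WT at 4 months. The ranges overlapped, 8 of 10 libraries labelled AKO lay below the WT median, and the difference of -0.20 (SE 0.08) had a limma adjusted p of 0.261. Col4a1 missed the F threshold without replicate 6 or replicate 19 of the libraries labelled AKO (0.0587 and 0.0779).

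Intervals bound the size of the collagen IV differences. For tamoxifen against vehicle, the 95% interval was -0.18 to 0.11 for Col4a1 and -0.14 to 0.09 for Col4a2. For vehicle against WT at 4 months it was -0.03 to 0.29 for Col4a1 and -0.06 to 0.22 for Col4a2. For the libraries labelled AKO against WT it was -0.37 to -0.03 for Col4a1, which leaves out 0 although the adjusted p did not pass, and -0.23 to 0.06 for Col4a2. For WT at 4 against 2 months it was -0.25 to 0.16 for Col4a1 and -0.37 to 0.11 for Col4a2. Over the class, 4 of 9 genes were higher with tamoxifen than with vehicle (median difference -0.03), 4 of 9 in vehicle than in WT at 4 months (-0.05), 3 of 8 in the libraries labelled AKO than in WT (-0.09), and 4 of 8 in WT at 4 than at 2 months (-0.01). The medians over all genes tested lay between -0.0010 and 0.0053.

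The collagen IV genes lie in head-to-head pairs, in which the members of a pair start near each other on opposite strands. Col4a2 (gene ID 12827) runs on the plus strand of chromosome 8 from 11312805 to 11449287 and Col4a1 (12826) on the minus strand from 11198423 to 11312826 (GENCODE M21, GRCm38). Their windows from 250 bases before to 50 after the start, from RefSeq (GRCm38.p6), overlap by 78 bases. They are shown because the 2 genes varied together; capitals mark the shared bases, which appear in each window as the reverse complement of the other. The Col4a1 window is chr8:11312777-11313076 on the minus strand and the Col4a2 window chr8:11312555-11312854 on the plus strand.
Col4a1: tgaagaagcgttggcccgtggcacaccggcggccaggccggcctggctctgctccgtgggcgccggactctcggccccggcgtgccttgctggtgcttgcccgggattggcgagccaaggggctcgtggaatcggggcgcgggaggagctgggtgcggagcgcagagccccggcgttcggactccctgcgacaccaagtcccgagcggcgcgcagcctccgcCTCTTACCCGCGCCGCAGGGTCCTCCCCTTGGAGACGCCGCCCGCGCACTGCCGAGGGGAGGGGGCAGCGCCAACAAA
Col4a2: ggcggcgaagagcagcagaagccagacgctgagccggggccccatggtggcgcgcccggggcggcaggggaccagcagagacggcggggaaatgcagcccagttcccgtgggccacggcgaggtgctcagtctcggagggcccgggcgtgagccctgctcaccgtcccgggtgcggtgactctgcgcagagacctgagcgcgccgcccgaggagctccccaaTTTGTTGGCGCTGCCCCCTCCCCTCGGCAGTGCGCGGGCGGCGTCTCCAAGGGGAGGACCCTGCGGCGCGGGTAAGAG

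Deviations of Col4a1 and Col4a2 from their group means had a Pearson's r of 0.79 over 49 libraries, the 4th highest of 946 pairs of collagen genes. Within groups r was 0.28 with tamoxifen, 0.34 with vehicle, 0.91 in libraries labelled AKO, 0.86 in 4-month WT and 0.97 in 2-month WT. The other head-to-head pairs varied together less: r was 0.36 for Col4a5 and Col4a6, and -0.04 for Col4a3 and Col4a4. Those last genes have few reads, with counting SDs of 0.54 and 0.56 against within-group SDs of 0.74 and 1.02. Without strand, reads from the 22 bases that the Col4a1 and Col4a2 transcripts share cannot be assigned; the kit marks strand, and whether counting used it is not stated in the sources.

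Fibrillar collagens gave 1 gene past the threshold in the 4 comparisons. Col2a1, the fibrillar collagen of cartilage and vitreous, had a lowest, median and highest level of 4.75, 5.99 and 6.68 in WT at 4 months, against 3.53, 5.13 and 5.75 in WT at 2 months. Most 4-month libraries were higher, 9 of 10 lay above the 2-month median, and the ranges overlapped. Col2a1 rose by 0.93 (SE 0.26), or 1.91-fold, at 4 months (limma adjusted p = 0.0319). The call was lost without WT replicate 32 or 35 at 2 months or replicate 12, 13 or 14 at 4 months (0.0530 to 0.0641), and under quantile normalisation (0.0510). Col2a1 is a low gene here, with 16 to 116 reads per library. In the same comparison 4 of 7 tested bone and cartilage markers were higher and 3 lower (median 0.26). Of these, Hapln1, a matrix link protein, rose by 0.26 (SE 0.07, limma adjusted p = 0.0236) and Alpl, a phosphatase, by 0.35 (SE 0.10, 0.0365). Their levels in WT at 4 months averaged 10.26 and 8.79, and do not show whether bone or cartilage was in the libraries. Of all genes tested, 4.54% rose in this comparison. The summed bone and cartilage markers ranged over 2029 to 3340 normalised reads in 4-month WT and 1816 to 2285 in 2-month WT, and had r = 0.32 with Col2a1 over 49 libraries; their part in its difference was not tested.

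In vehicle libraries Col2a1 was at 4.62, 5.31 and 5.66 (lowest, median and highest), below the median of WT at 4 months in 10 of 10 libraries. The difference of -0.70 (SE 0.22) did not pass (adjusted p = 0.0600), but did without WT replicate 24 (0.0146), without the 3 libraries highest in olfactory bulb markers (0.0272) and with all 5 groups in 1 fit (0.0285). With tamoxifen Col2a1 was at 4.92, 5.70 and 6.15, a difference from vehicle of 0.42 (SE 0.18; adjusted p = 0.9998), the smallest p of any collagen gene in that comparison. Among the groups Col2a1 differed by the F test (adjusted p = 0.00739).

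Col5a3 and Col5a1, chains of collagen V, which starts collagen fibrils, both differed among the groups by the F test (adjusted p = 0.00230 and 0.0431). Col5a3 was at 6.72, 7.23 and 7.68 (lowest, median and highest) in vehicle libraries, against 6.35, 6.65 and 7.46 in WT at 4 months. All 10 vehicle libraries lay above the WT median, although the ranges overlapped, and the difference of 0.47 (SE 0.15) did not pass (adjusted p = 0.0656). It passed without vehicle replicate 10 (0.0381), WT replicate 13 (0.0224) or WT replicate 15 (0.0294). Levels were 6.76, 7.44 and 7.65 with tamoxifen, 6.48, 6.72 and 7.20 in libraries labelled AKO and 6.46, 7.07 and 7.65 in 2-month WT.

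Col5a1 was at 8.29, 9.27 and 9.79 with tamoxifen, 8.59, 9.23 and 9.87 with vehicle, 8.28, 8.69 and 9.27 in libraries labelled AKO, 7.35, 8.77 and 9.31 in 4-month WT and 8.31, 8.95 and 9.55 in 2-month WT. Both transgenic groups had higher medians than the other 3, with overlapping ranges. A list of RNAs retained in the nucleus (Malat1, Neat1, Meg3 and 4 others, chosen after the data were seen) moved with Col5a1 between libraries, with r = 0.79 over 49 libraries, and with Col4a2 at 0.75, Col16a1 at 0.72, Col5a3 at 0.65 and Col4a1 at 0.64 (0.80, 0.76, 0.81, 0.68 and 0.69 without the 3 libraries highest in olfactory bulb markers). In vehicle against WT at 4 months 6 of 7 of its genes were higher (median 0.22) and none passed. Its summed level was 82852 to 136153 normalised reads with tamoxifen, 81563 to 149536 with vehicle, 72635 to 130324 in the libraries labelled AKO, 63989 to 139260 in WT at 4 months and 64464 to 168241 in WT at 2 months. No gene of that list is at 0 in all libraries, and its part in the differences of Col5a1, Col5a3 and Col4a1 was not tested.

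Collagen I and III, the main fibrillar collagens of fibroblasts, did not pass in any comparison. Col1a2 averaged 76.8 ± 17 normalised reads per kb with tamoxifen, 68.8 ± 20.4 with vehicle, 86.7 ± 17.3 in libraries labelled AKO, 93.2 ± 25.2 in 4-month WT and 70.8 ± 13.8 in 2-month WT. Col11a2, a chain of collagen XI, averaged 118 ± 16.9, 115 ± 20.9, 135 ± 15, 115 ± 21.2 and 115 ± 16.4 in that order. Col11a1, another chain of collagen XI, had the smallest p of the collagen genes in the libraries labelled AKO. It was at 8.05, 8.44 and 9.03 there, against 7.57, 8.03 and 8.75 in WT at 4 months. All 10 libraries labelled AKO lay above the WT median, with overlapping ranges, and the difference of 0.43 (SE 0.12) did not pass (adjusted p = 0.0961; 0.0201 without WT replicate 15, the highest WT library). Next in that comparison, also not passing, were Col20a1 at -0.31 (adjusted p = 0.221) and Col11a2 at 0.24 (0.227).

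Over the 11 fibrillar genes, 7 were higher with tamoxifen than vehicle (median difference 0.07), 7 in vehicle than in WT at 4 months (0.02), 6 in the libraries labelled AKO than in WT (0.03) and 7 in WT at 4 than at 2 months (0.06).

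**Figure D2:**
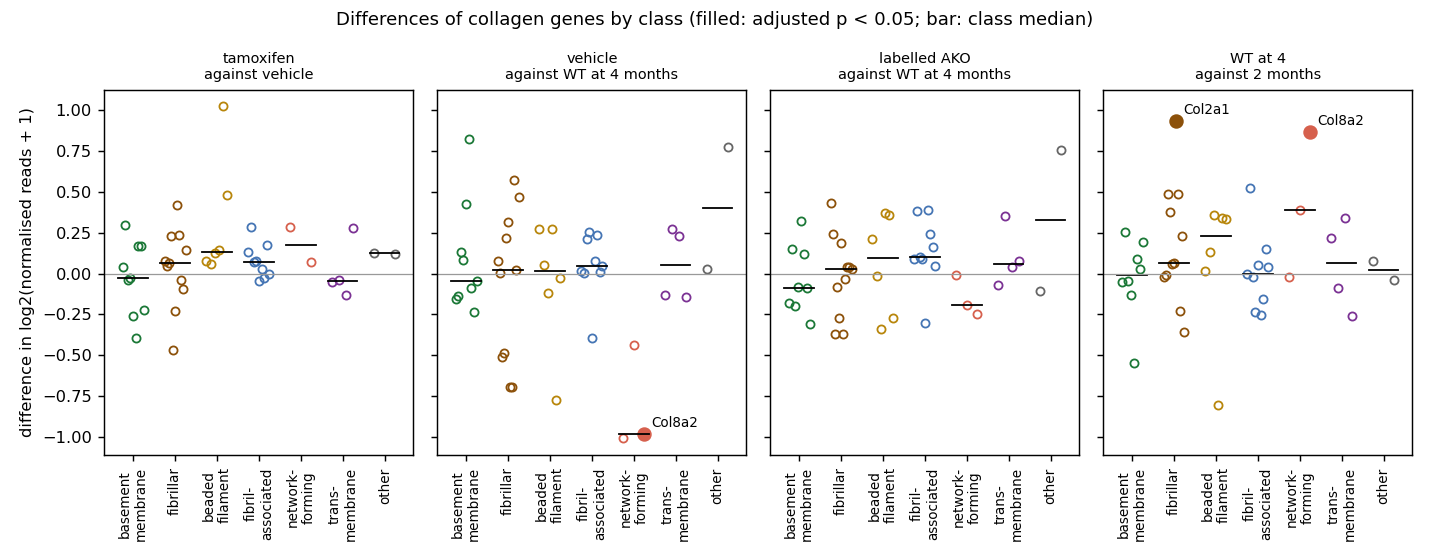
Differences in log2(normalised reads + 1) of the collagen genes tested, by class, in 4 comparisons; each circle is a gene, filled where limma's adjusted p was under 0.05, and bars are class medians. Filled circles are Col8a2 at -0.98 in vehicle against WT at 4 months, and Col2a1 at 0.93 and Col8a2 at 0.86 in WT at 4 against 2 months.

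Network-forming collagens held the gene with most calls. Col8a2 encodes a chain of collagen VIII, the hexagonal network of Descemet's membrane in the cornea and of vessel walls. Its level was 6.72, 7.25 and 8.67 (lowest, median and highest) in WT at 4 months, against 5.44, 6.60 and 7.30 in WT at 2 months. All 10 libraries at 4 months lay above the 2-month median, and the ranges overlapped. Col8a2 rose by 0.86 (SE 0.23), or 1.82-fold, at 4 months (limma adjusted p = 0.0271), and missed the threshold without WT replicate 33, 34 or 35 at 2 months (0.0512 to 0.0531).

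In vehicle libraries Col8a2 was at 4.58, 6.51 and 7.34, and 9 of 10 lay below the median of WT at 4 months, with overlapping ranges. Col8a2 fell by 0.98 (SE 0.28), and was 1.98-fold lower in vehicle than in WT at 4 months (adjusted p = 0.0425). The call was lost without any 1 of vehicle replicates 1, 4, 11, 16, 40 and 41 or of WT replicates 11, 12, 14, 15, 21, 23, 24 and 25 (0.0536 to 0.0716), with no filter on low values (0.0541) and under quantile normalisation (0.0520). It was kept without vehicle replicate 3, which had the lowest value, at -0.78 (0.0285). Without the 3 libraries highest in olfactory bulb markers the difference was -0.75 (0.0284), and 4 collagen genes passed (Col8a2, Col2a1, Col20a1 and Col19a1).

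With tamoxifen Col8a2 was at 5.72, 6.55 and 7.05, and in the libraries labelled AKO at 6.75, 6.95 and 7.82, so that the transgenic groups and WT at 2 months had the lower medians. Per length it averaged 20.05 ± 5.37 normalised reads per kb with tamoxifen, 20.5 ± 8.69 with vehicle, 31.9 ± 9.52 in libraries labelled AKO, 39.7 ± 19.5 in 4-month WT and 21.2 ± 7.39 in 2-month WT. The F test gave an adjusted p of 0.00253. Col8a1, the other collagen VIII gene, averaged 15.6 ± 5.60, 14.5 ± 6.10, 14.6 ± 2.33, 16.9 ± 3.31 and 13.1 ± 3.47 in that order and did not pass in any comparison (0.39, SE 0.16, adjusted p = 0.117 in WT at 4 against 2 months). Col10a1, the collagen of growth plate cartilage, had 1 to 26 reads per library in both transgenic groups and was not tested in tamoxifen against vehicle. Col4a3 was likewise not tested in the libraries labelled AKO against WT or in WT at 4 against 2 months, because too few libraries reached the minimum of 10 reads.

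**Figure D3:**
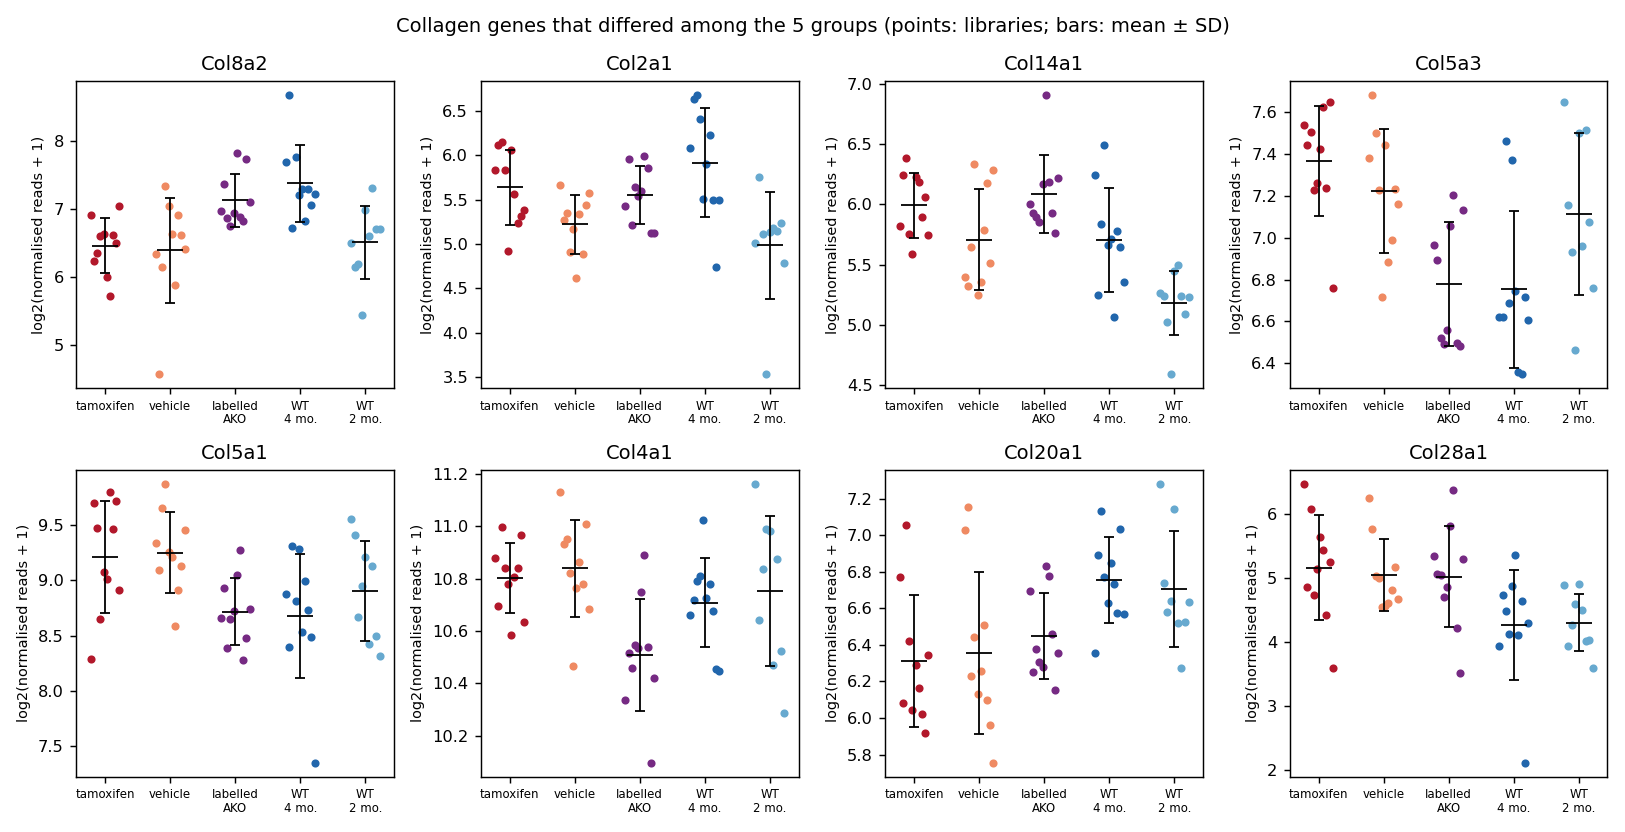
Levels in log2(normalised reads + 1) of the 8 collagen genes past the F test, one panel each; points are libraries (n = 10, 10, 10, 10 and 9) and bars the mean ± SD of tamoxifen, vehicle, labelled AKO, WT at 4 months and WT at 2 months. Col8a2 and Col2a1 are highest in WT at 4 months, and Col14a1 is lowest in WT at 2 months; all groups overlap with at least 1 other.

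Markers of leptomeningeal fibroblasts other than collagens moved with Col8a2. All 16 were higher in WT at 4 than at 2 months, with a median difference of 0.37, and 2 rose past the threshold: Ogn by 0.77 (SE 0.16; adjusted p = 0.00993) and Dcn by 0.51 (SE 0.16; 0.0488), both small proteoglycans of collagen fibrils. In vehicle against WT at 4 months 14 of 16 were lower, with a median of -0.37, and none passed in limma (1 had an unadjusted p under 0.05). Their summed level was 22553 to 51691 normalised reads with tamoxifen, 18936 to 54881 with vehicle, 22655 to 53108 in the libraries labelled AKO, 31704 to 57663 in WT at 4 months and 24390 to 39724 in WT at 2 months. No marker of the list was at 0 in all libraries of a group. Other cell types also moved in WT at 4 against 2 months. All 12 pericyte and smooth muscle markers were higher (median 0.27), of which Vtn rose by 0.34 (SE 0.07; 0.0101) and Rgs5 by 0.28 (SE 0.07; 0.0236), and all 9 tested choroid plexus markers were higher (median 0.63) with none past the threshold. Of 12 cortical excitatory neuron markers 10 were lower (median -0.24), and Neurod2 fell by 0.35 (SE 0.08; 0.0176), Nrgn by 0.35 (SE 0.08; 0.0178) and Slc17a7 by 0.20 (SE 0.06; 0.0492). Of all genes tested in WT at 4 against 2 months, 4.54% rose and 4.15% fell. The summed pericyte markers were 9634 to 13562 normalised reads in 4-month WT and 8298 to 10898 in 2-month WT. The part of these lists in the differences of Col8a2 and Col2a1 was not tested.

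Of the 14 collagen genes known to be made by leptomeningeal fibroblasts, 11 were higher in WT at 4 than at 2 months, with a median of 0.24, and Col8a2 alone passed. In vehicle against WT at 4 months 9 of 14 were lower (median -0.14), in the libraries labelled AKO 9 of 14 (-0.05), and with tamoxifen 11 of 14 were higher than with vehicle (0.07). Col1a1 (0.49, SE 0.20), Col1a2 (0.38, SE 0.15) and Col8a1 had adjusted p values of 0.115 to 0.123 in WT at 4 against 2 months. Over all collagen genes tested in that comparison 25 of 43 were higher, with a median of 0.05. Not all 14 genes followed the summed leptomeningeal markers between libraries. Deviations from group means had r from -0.06 for Col5a1 and 0.04 for Col6a1 to 0.80 for Col3a1, with a median of 0.40 over the 14.

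Beaded filament collagens (collagen VI, which forms fine filaments between cells and matrix) had no gene past a test. Col6a1, the highest collagen gene per length, averaged 789 ± 212 normalised reads per kb with tamoxifen, 741 ± 177 with vehicle, 700 ± 121 in libraries labelled AKO, 610 ± 131 in 4-month WT and 604 ± 130 in 2-month WT (F test, adjusted p = 0.147). Col6a2 averaged 97.6 ± 19.9, 93.8 ± 19.8, 88.3 ± 12.7, 90.4 ± 19.5 and 81.4 ± 13 in that order. Col6a5, a low chain with 1 to 92 reads per library, had a difference of 1.03 (SE 0.47) between tamoxifen and vehicle that did not pass (adjusted p = 0.9998), with levels of 3.42, 4.78 and 6.21 with tamoxifen, against 1.14, 4.38 and 5.17 with vehicle. All 6 genes of the class were higher with tamoxifen than with vehicle, with a median of 0.13, and none passed.

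Fibril-associated collagens sit on the surface of fibrils or join matrix layers. Col14a1, a collagen of tendon and skin that binds fibrils, had the smallest F-test p of all collagen genes (adjusted p = 0.000449). It was at 5.59, 5.98 and 6.39 with tamoxifen, 5.25, 5.58 and 6.34 with vehicle, 5.76, 5.97 and 6.91 in libraries labelled AKO, 5.06, 5.69 and 6.49 in 4-month WT and 4.59, 5.24 and 5.50 in 2-month WT. The 10 tamoxifen libraries and the 10 libraries labelled AKO all lay above the highest WT library at 2 months, whereas vehicle and WT at 4 months overlapped it. Neither of those 2 groups was tested against WT at 2 months, and the share of all genes that separate so was not counted. Both also had 4 months of the diet against 2. In none of the 4 comparisons tested did Col14a1 pass. The differences were 0.28 (SE 0.16, limma adjusted p = 0.9998) for tamoxifen against vehicle and 0.002 (SE 0.19, 0.997) for vehicle against WT at 4 months. They were 0.38 (SE 0.17, 0.320) for the libraries labelled AKO against WT and 0.52 (SE 0.18, 0.0634) for WT at 4 against 2 months. The last of these passed without WT replicate 37 at 2 months (0.0367) or WT replicate 22 at 4 months (0.0323), and with all 5 groups in 1 fit (0.0472).

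Col20a1, a related gene of little-known function, was at 5.92, 6.23 and 7.05 with tamoxifen, 5.76, 6.24 and 7.15 with vehicle, 6.15, 6.37 and 6.83 in libraries labelled AKO, 6.36, 6.75 and 7.13 in 4-month WT and 6.27, 6.63 and 7.28 in 2-month WT. The WT groups had the higher medians, with overlap throughout (F test, adjusted p = 0.0472). Col9a2 and Col9a3, chains of the cartilage collagen IX, were the highest of the class per length. Col9a2 averaged 136 ± 53.0, 124 ± 64.5, 130 ± 33.7, 116 ± 27.3 and 104 ± 20.4 normalised reads per kb, and Col9a3 120 ± 32.5, 119 ± 29.4, 117 ± 14.7, 114 ± 21.6 and 110 ± 18.8, in the order tamoxifen, vehicle, labelled AKO, WT at 4 months and WT at 2 months. Neither passed a test. Over the 9 genes of the class, 6 were higher with tamoxifen than vehicle (median difference 0.07), 8 in vehicle than in WT at 4 months (0.05), 8 in the libraries labelled AKO than in WT (0.10) and 4 in WT at 4 than at 2 months.

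Transmembrane collagens did not pass in any comparison. Col25a1, the neuronal precursor of a plaque-associated amyloid component, averaged 202 ± 35.1 normalised reads per kb with tamoxifen, 178 ± 59.5 with vehicle, 193 ± 27.3 in libraries labelled AKO, 184 ± 28.8 in 4-month WT and 219 ± 27.7 in 2-month WT. All 10 WT libraries at 4 months lay below the 2-month median, and the difference of -0.26 (SE 0.09) did not pass (adjusted p = 0.0845). Col23a1 averaged 102 ± 35.5, 118 ± 66.1, 97.3 ± 32.9, 94.2 ± 28.1 and 72.6 ± 14 in the same order. Of the genes outside these classes, Col26a1 averaged 15.7 ± 3.39, 14.6 ± 4.32, 12.99 ± 2.31, 14.3 ± 4.27 and 13.3 ± 2.61.

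Col28a1, a collagen of peripheral nerve glia, averaged 8.22 ± 4.66 with tamoxifen, 7.09 ± 3.46 with vehicle, 7.38 ± 4.16 in libraries labelled AKO, 4.25 ± 1.98 in 4-month WT and 4.01 ± 1.30 in 2-month WT. It differed by the F test (adjusted p = 0.0477), and its difference was 0.78 (SE 0.32; 0.158) in vehicle and 0.76 (SE 0.35; 0.327) in the libraries labelled AKO, both against WT at 4 months. The F-test count fell to 5 of 44 without any 1 of tamoxifen replicates 15, 28 and 44, vehicle replicates 4 and 5, replicates 6, 8, 13 and 19 of the libraries labelled AKO, WT replicate 24 at 4 months and WT replicates 34 and 35 at 2 months. Col14a1, Col5a3, Col8a2 and Col2a1 passed without each of the 49 libraries in turn, whereas Col5a1 passed in 25 of these 49 fits, Col28a1 in 18 and Col20a1 in 14.

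Genes that serve collagens were counted by pathway list. Of 24 genes for folding, modification and secretion, 2 fell in the libraries labelled AKO, the lysyl hydroxylase Plod1 by 0.27 (SE 0.06; limma adjusted p = 0.0286) and the prolyl hydroxylase subunit P4ha1 by 0.19 (SE 0.04; 0.0318). Both also fell in vehicle against WT at 4 months, P4ha1 by 0.27 (SE 0.05; 0.00378) and Plod1 by 0.33 (SE 0.07; 0.00541), as did the collagen chaperone Serpinh1 by 0.30 (SE 0.08; 0.0373). In WT at 4 against 2 months 4 rose (Plod1 by 0.22, Fkbp14 by 0.25, P3h4 by 0.29 and Ppib by 0.12) and Colgalt1, a collagen galactosyltransferase, fell by 0.15. With tamoxifen none passed. Of all genes tested, 0.504% fell in the libraries labelled AKO, 3.59% fell in vehicle against WT, and 4.54% rose and 4.15% fell in WT at 4 against 2 months.

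Of 13 tested genes for processing and cross-linking, Bmp1, which cleaves procollagen ends, rose by 0.38 (SE 0.11; 0.0460) in vehicle against WT at 4 months, and Pxdn, the peroxidase that cross-links collagen IV, fell by 0.39 (SE 0.08; 0.00637) in WT at 4 against 2 months. None of the 9 collagen receptors or 11 turnover genes tested passed in any comparison by limma (0 to 3 of a list had an unadjusted p under 0.05). Among 13 basement membrane partners, Agrn, a heparan sulfate proteoglycan, fell by 0.20 (SE 0.06; 0.0492) in WT at 4 against 2 months. Among 11 fibril partners 3 rose there: Ogn, Bgn by 0.48 (SE 0.14; 0.0345) and Dcn. Of 14 endothelial markers, 5 rose in WT at 4 against 2 months (Pecam1 by 0.26, Tie1 by 0.28, Cdh5 by 0.24 and Tek by 0.32 with the smallest p) and 3 fell in vehicle against WT at 4 months (Tie1 by 0.38, Tek by 0.35 and Pecam1 by 0.25); of all genes tested 4.54% rose in the first comparison and 3.59% fell in the other. Col4a1 and Col4a2 had differences of -0.04 and -0.13 in the first of these and 0.13 and 0.08 in the other.

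Between libraries, collagen genes varied in sets that cut across their structural classes. These correlations are of deviations from group means over 49 libraries; all genes of a library share its dissection and depth. Besides Col4a1 with Col4a2, the highest were Col7a1 with Col24a1 (r = 0.83), Col1a1 with Col1a2 (0.81), Col3a1 with Col1a2 (0.79) and Col23a1 with Col27a1 (0.78). The median over all 946 pairs was 0.12. It was 0.23 among fibrillar genes, 0.17 among basement membrane genes and 0.31 among the 14 meningeal genes. Without the 3 libraries highest in olfactory bulb markers r was 0.76, 0.86, 0.81 and 0.67 for those 4 pairs and 0.84 for Col4a1 with Col4a2.

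**Figure D4:**
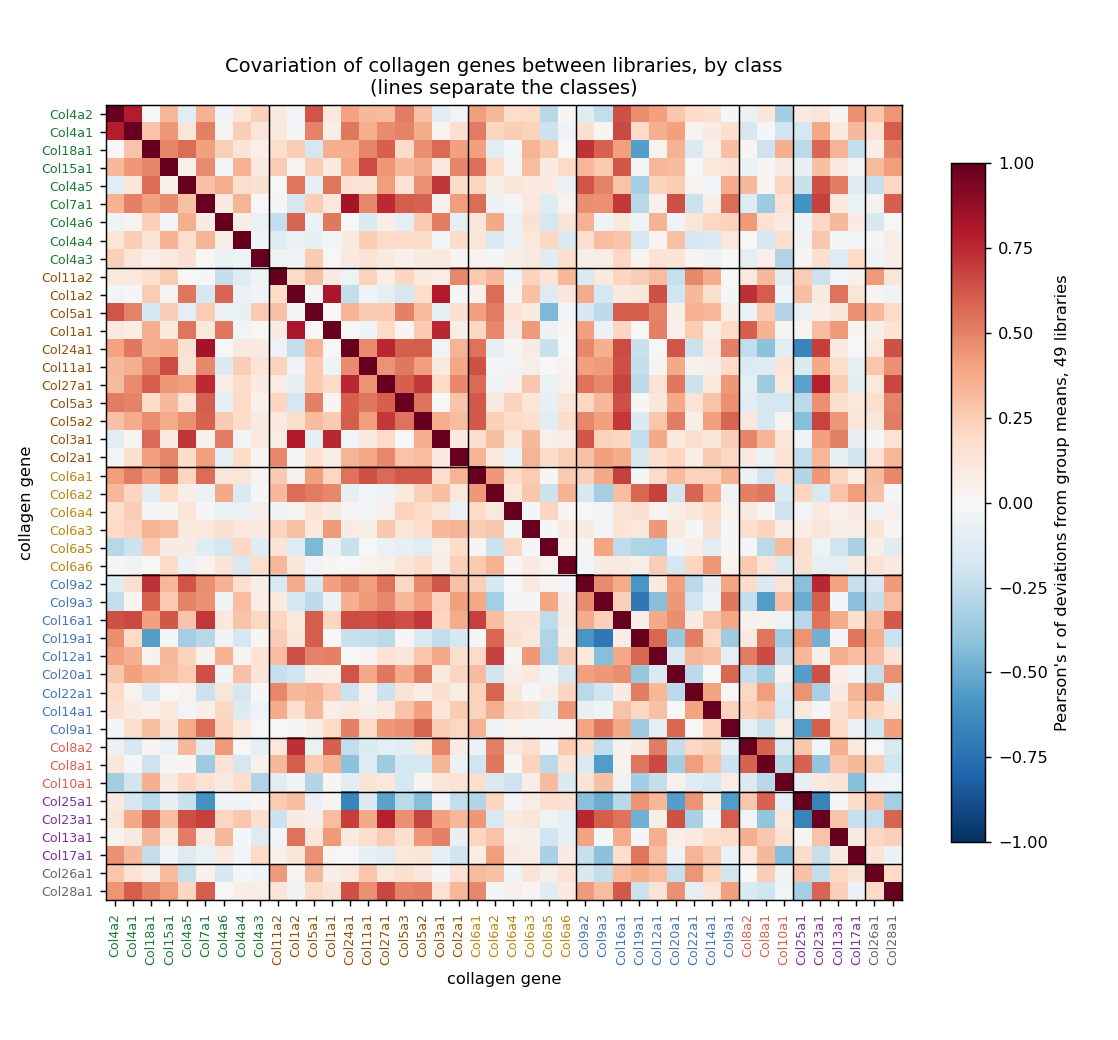
Pearson's r between deviations of 44 collagen genes from their group means over 49 libraries, ordered by class with lines between classes. Col4a1 with Col4a2 (0.79) and Col1a1 with Col1a2 (0.81) stand out as dark squares within classes, while Col7a1, Col24a1, Col27a1 and Col23a1 are high together across classes.

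The set of Col1a1, Col1a2 and Col3a1 ran with leptomeningeal markers and, less closely, with pericyte and smooth muscle markers. The summed level of the 16 non-collagen markers had r = 0.80 with Col3a1, 0.79 with Col1a2, 0.67 with Col1a1, 0.54 with Col8a2, 0.66 with Col4a5 and 0.63 with Col4a6, but -0.03 with Col4a1 and -0.23 with Col4a2. In this sum of reads Ptgds weighs most. Its group means ran from 14.5 to 14.8, where the log2 of the sum ran from 14.21 to 15.82 over the libraries. An r without Ptgds was not computed. Pericyte and smooth muscle markers had r = 0.74 with Col3a1, 0.51 with Col1a2, 0.45 with Col1a1 and 0.59 with Col4a5 (0.72, 0.52, 0.42 and 0.60 without the 3 libraries highest in olfactory bulb markers). Endothelial markers had r = 0.20 with Col4a1 and -0.09 with Col4a2. Over the 9 basement membrane genes the median was 0.22, up to 0.48 with Col4a5 (0.45 without the 3 libraries highest in olfactory bulb markers). Vehicle replicate 3, the library lowest in leptomeningeal markers, was also the lowest of all 49 in Col1a2 (7.90), Col8a2 (4.58) and Col8a1 (3.56, with 8 reads). Without the 3 libraries highest in olfactory bulb markers, r with the leptomeningeal markers was 0.77 for Col3a1, 0.80 for Col1a2, 0.65 for Col1a1, 0.49 for Col8a2, 0.61 for Col4a5, 0.66 for Col4a6, -0.09 for Col4a1 and -0.23 for Col4a2, and r with the endothelial markers was 0.19 for Col4a1 and -0.08 for Col4a2.

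The promoter windows of Col1a2, Col3a1 and Col8a2 are shown because these genes varied together, with Col8a2 at r = 0.73 with Col1a2. Capitals mark matches to the letters of 3 boxes on either strand. The CCAAT box was searched as CCAAT and, reversed, as ATTGG; the TATA box as TATAAA and, reversed, as TTTATA; the GC box as GGGCGG and, reversed, as CCGCCC. In Col8a2 the last 2 of 4 matches overlap. The windows (RefSeq, GRCm38.p6, plus strand) are chr6:4505368-4505667 for Col1a2, chr1:45311288-45311587 for Col3a1 and chr4:126286544-126286843 for Col8a2.
Col1a2: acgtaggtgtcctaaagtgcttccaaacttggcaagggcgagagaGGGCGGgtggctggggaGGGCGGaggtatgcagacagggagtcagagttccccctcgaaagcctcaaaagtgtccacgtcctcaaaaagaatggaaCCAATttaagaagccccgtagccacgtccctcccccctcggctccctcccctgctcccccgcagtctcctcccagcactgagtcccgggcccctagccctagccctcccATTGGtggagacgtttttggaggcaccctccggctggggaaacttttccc
Col3a1: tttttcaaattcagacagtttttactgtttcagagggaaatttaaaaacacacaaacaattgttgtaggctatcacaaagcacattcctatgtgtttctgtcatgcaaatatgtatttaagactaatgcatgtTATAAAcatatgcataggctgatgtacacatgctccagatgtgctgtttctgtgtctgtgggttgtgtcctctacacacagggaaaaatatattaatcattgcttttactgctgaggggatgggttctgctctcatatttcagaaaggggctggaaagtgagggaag
Col8a2: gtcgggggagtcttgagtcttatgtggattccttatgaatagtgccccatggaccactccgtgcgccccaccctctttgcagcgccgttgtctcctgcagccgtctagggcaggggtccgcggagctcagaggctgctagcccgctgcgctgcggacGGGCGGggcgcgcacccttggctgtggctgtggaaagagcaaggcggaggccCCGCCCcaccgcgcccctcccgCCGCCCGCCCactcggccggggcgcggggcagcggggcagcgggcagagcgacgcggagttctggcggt

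No box was in all 3 windows, and Col3a1 held a TATA match alone. RefSeq windows were matched for 35 of the 44 genes (38 windows). A CCAAT match was in 13 of 38 (34.2%) and in 37.4% of all 32851 windows. A TATA match was in 5 of 38 (13.2%) against 13.6%, and a GC match in 23 of 38 (60.5%) against 35.7%. The median G and C content of all windows was 52.67%, and windows of collagen genes ran from 37.67% (Col3a1) to 75% (Col5a1). The part of base content in the GC matches was not tested. A match is a description of the letters, not a site.

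The set of Col7a1, Col24a1, Col23a1 and Col27a1 ran with the summed bone and cartilage list and with markers of the olfactory bulb. The first list is a sum of reads, so genes with many reads weigh most. Hapln1 alone averaged 10.26 in WT at 4 months, where the log2 of the sum ran from 10.99 to 11.71. An r with the sum therefore does not show that bone or cartilage was present. The bone and cartilage list had the highest r with each: 0.75, 0.80, 0.85 and 0.78, in that order, and 0.62, 0.66, 0.77 and 0.67 without the 3 libraries highest in olfactory bulb markers. Olfactory bulb markers (7 genes, chosen after the data were seen) had r = 0.83 with Col23a1, a transmembrane collagen, 0.74 with Col9a2, 0.70 with the fibrillar Col24a1, 0.69 with Col7a1, the anchoring fibril collagen, and 0.69 with Col27a1, and -0.66 with Col25a1. Col24a1 was at 9.77 and 9.48 in vehicle replicates 3 and 1, the highest 2 of 49, and at most 8.52 elsewhere. In the same libraries Col25a1 was lowest, at 9.50 and 10.23. Without the 3 libraries highest in these markers r was 0.76 for Col23a1 and for Col9a2, 0.57 for Col24a1 and for Col7a1, 0.55 for Col27a1 and -0.57 for Col25a1. The summed olfactory bulb markers ranged over 460 to 20903 with tamoxifen, 491 to 58541 with vehicle, 804 to 19275 in the libraries labelled AKO, 852 to 17963 in WT at 4 months and 487 to 8769 in WT at 2 months. Their part in the spread of these genes was not tested. Of 9 markers of striatal projection neurons, a list also chosen after the data were seen, all were lower in vehicle than in WT at 4 months (median -0.79), all higher in the libraries labelled AKO than in WT (0.41) and all higher in WT at 4 than at 2 months (0.48), and none passed. All 5 tested olfactory mucosa markers were also higher in the libraries labelled AKO than in WT at 4 months (median 1.57), and none passed. The summed list of 13 had a median of 17867 normalised reads (14017 to 65533) in the libraries labelled AKO and 14487 (7547 to 19266) in WT at 4 months. Replicates 14 and 19 were the highest of the libraries labelled AKO. Genes with many reads weigh most in this sum too, and its level does not show whether mucosa was present.

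Markers of cortical excitatory neurons had r = 0.83 with Col19a1, a fibril-associated collagen that interneurons make, and -0.81 with Col9a3. Without the 3 libraries r was 0.62 and -0.86. Choroid plexus markers went the other way, with r = -0.77 with Col19a1 and 0.78 with Col9a3 over 49 libraries. So did oligodendrocyte precursor markers (-0.70 and 0.75). Col19a1 was at 7.65, 9.77 and 9.94 (lowest, median and highest) with tamoxifen, 8.50, 9.52 and 10.14 with vehicle, 8.81, 9.26 and 9.64 in libraries labelled AKO, 8.86, 9.07 and 9.65 in 4-month WT and 8.31, 9.54 and 9.84 in 2-month WT. The groups overlapped, and the F test gave an adjusted p of 0.597.

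**Figure D5:**
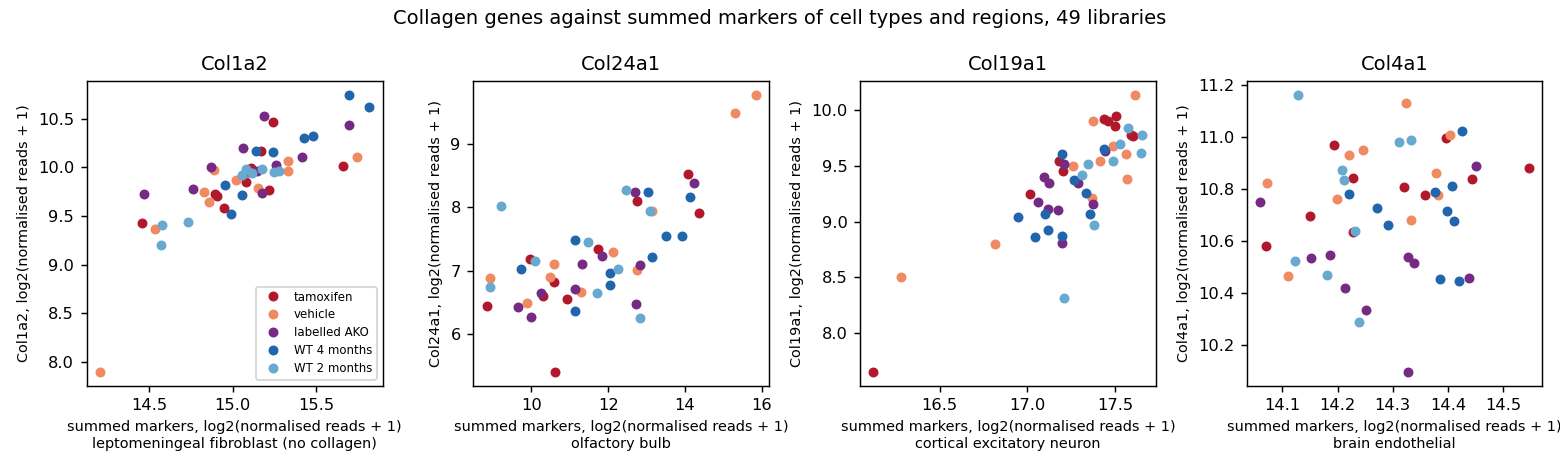
Levels of Col1a2, Col24a1, Col19a1 and Col4a1 (vertical) against the summed level of leptomeningeal fibroblast, olfactory bulb, cortical excitatory neuron and brain endothelial markers (horizontal), both as log2(normalised reads + 1); points are the 49 libraries, coloured by group. The first 3 genes climb with their markers (r = 0.79, 0.70 and 0.83 of deviations from group means), and Col4a1 shows no such slope (0.20).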

How the data were processed

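Per the labels' protocols, 49 frontal cortex libraries were prepared by Illumina TruSeq Stranded mRNA chemistry. The authors deposited 1 table of log2 values (24495 genes, 50 value columns); the aligner, counter, annotation and build behind it were not given in the sources used here. The deposited log2 values are log2(reads / size factor + 1): in each library 99.92 to 100% of low values fell on whole multiples of 1 read, so reads were recovered (29.2 to 75.6 M per library). The 7 genes with other values were left out, and 1 value column that matched no sample was not used. No replicate pair was alike within sampling noise (lowest chi-square per gene 6.68).

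Collagen classes, gene lists and members were chosen with earlier results of these data known, and the olfactory bulb, striatal and nuclear RNA lists after the data were seen. The design allowed for counts or log2 values; since the unit was log2, limma 3.58.1 in R 4.3.3 (trend, robust) was fitted to the 2 groups compared, without covariates, and a moderated F test to all 5, two-sided, with Benjamini-Hochberg adjustment over all genes tested at 0.05. A gene was tested if the number of its libraries with at least 10 reads (scaled to median depth) was at least the size of the smaller group, and its total at least 15. The fit was tested on simulated data. Alternatives were no filter, another pseudocount (5), limma-voom on recovered reads, quantile normalisation, 1 fit of all groups, the replicate block, leaving out each library and, chosen after seeing the data, leaving out the 3 libraries highest in olfactory bulb markers, and for the F test no filter and each library left out. Genes named are those past a threshold, otherwise the 3 with the smallest p in a comparison, the 2 highest per kb of each class and, of other lists, at most 4 by smallest p; Col1a1, Col3a1, Col7a1, Col10a1, Col19a1, Col24a1 and Col27a1 were named besides after their values were seen, and the head-to-head and best-correlated pairs by the rule. Exon lengths came from GENCODE M21 (GRCm38), matched by symbol, as the union of all annotated exons of a gene.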

Additional observations from a re-analysis of the deposited data

Results flagged for a closer look

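Of 105 group-by-gene sets tested, for 21 collagen genes named in full, 13 held a library far from the rest by Dixon's test, where chance flags about 1 in 20. Values are log2(normalised reads + 1). Vehicle replicate 3 was far below the others in Col1a2 (7.90, next 9.37), Col8a1 (3.56, next 6.13) and Col8a2 (4.58, next 5.88), and vehicle replicate 1 was far above in Col9a2 (9.85, next 8.80). Both are the libraries highest in olfactory bulb markers.

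Among libraries labelled AKO, replicate 14 was high in Col14a1 (6.91) and Col6a2 (9.97); it was also the highest of all in olfactory mucosa markers, at 65533 normalised reads. In the tamoxifen group, replicate 33 was high in Col8a1 (7.87) and replicate 45 low in Col5a3 (6.76). In WT at 4 months, replicate 15 was high in Col11a1 (8.75), replicate 24 low in Col28a1 (2.12, from 4 reads) and replicate 25 low in Col5a1 (7.35). In WT at 2 months, replicate 35 was low in Col11a2 (9.15) and Col2a1 (3.53).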

How the results depend on the processing

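The alternatives were run for the counts, the 8 genes past the F test and the 3 genes of smallest p in each comparison, and none of these 12 differences changed sign. Counts of collagen genes past the threshold stayed at 0 for tamoxifen against vehicle in all 26 alternatives. Leaving out 1 library at a time gave 0 to 1 for the libraries labelled AKO against WT at 4 months (1 was Col11a1, without WT replicate 15), 0 to 5 for WT at 4 against 2 months (0 without WT replicate 35 and 5 without WT replicate 37, both at 2 months), 0 to 2 for vehicle against WT at 4 months, and 5 to 8 for the F test. Quantile normalisation gave 1 for WT at 4 against 2 months, and in vehicle against WT it replaced Col8a2 by Col5a3 (0.52, adjusted p = 0.0348). For vehicle against WT the count was 0 with no filter, 3 with all 5 groups in 1 fit and 4 without the 3 libraries highest in olfactory bulb markers; for the F test it was 5 with no filter. The cause of these shifts was not tested. No scaling moved the median of all genes by 0.1.

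The libraries labelled AKO and WT at 4 months share 5 title numbers, whose deviations correlated at -0.28 to 0.13, and each of these libraries labelled AKO correlated better with a WT library of another number (0.18 to 0.33). They share only a number. A fit with the replicate block called 0 collagen genes. No paired analysis was possible because the other groups compared share fewer than 2 numbers. Col4a3, Col4a4, Col6a6 and Col10a1, with at most 44 reads in any library, are limited by depth.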
